A study of Drosophila melanogaster with 4 samples.

Results

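The *Drosophila melanogaster* glutathione S-transferase genes were followed in S2R+ cells with and without the intronic enhancer of *Notch*. They were taken as every gene of the dm6 annotation whose symbol starts with *Gst* and a class letter D, E, O, S, T or Z, and for which a transcript had been quantified. This gave 35 genes of the 13909 with a quantified transcript, namely 11 of class D (delta), 14 of class E (epsilon), 3 of class O (omega), 1 of class S (sigma), 4 of class T (theta) and 2 of class Z (zeta). The rule reads symbols only. The symbol *se* (sepia), an omega-class gene with another name, is therefore outside the family as counted and is given only as a neighbour.

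Glutathione S-transferases are soluble enzymes that join the tripeptide glutathione to reactive molecules, among them plant toxins, insecticides and products of lipid oxidation, which can then be exported from the cell. The delta and epsilon classes expanded in insects and lie largely in tandem arrays, while the omega, sigma, theta and zeta classes are shared with vertebrates. Several members are induced by the transcription factor CncC, the fly counterpart of mammalian Nrf2, which Keap1 holds in check. Not every member detoxifies, since zeta enzymes act in tyrosine breakdown, an omega enzyme makes a precursor of eye pigment and *GstE14* (Noppera-bo) serves the production of ecdysteroids.

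Total RNA was sequenced from 2 libraries of wild-type S2R+ cells and 2 libraries of the enhancer mutant (labelled CRISPR-mutant-enhancer), as paired-end reads of 150 bp. S2R+ is an established line grown from late embryos, and both groups were kept at 25 °C in Schneider's medium with serum and antibiotics, with no other treatment given in the labels. The mutant carries a Cas9-made deletion in an intron of *Notch*. It had been selected with puromycin and expanded from clones isolated by serial dilution, whereas no such step is given for wild-type, so that deletion and clonal origin cannot be told apart in these libraries. The labels speak of independent libraries and do not say whether the cultures were separate, so the p values measure the spread between libraries.

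The 4 libraries held between 16240543 and 29605002 estimated counts, with both mutant libraries deeper than both wild-type libraries. *Notch* (*N*), the targeted gene, had 160 and 126 read counts scaled to library size (CPM) in wild-type and 38.1 and 35.3 CPM in the mutant. Markers of the blood cell origin of the line were partly present, with *srp* between 45.2 and 74.8 TPM and *Pvr* between 114.7 and 138 TPM, while *gcm* was at 0 and *NimC1*, *eater* and *lz* stayed at or below 0.31 TPM in each library. Of the 6 blood cell markers tested, *crq* was called higher and *Hml* lower in the mutant, beside 12.6% higher and 15.3% lower of all genes. Muscle markers summed to at most 0.53 TPM and fat body markers to at most 0.22 TPM in a library. Germline markers summed to 7.39 and 8.35 TPM in wild-type and 0.80 and 0.56 TPM in the mutant, nearly all from *bam*, which was called lower, while *vas* stayed at or below 0.20 TPM. The neuron markers *elav* and *nSyb* summed to 14.9 and 12.1 TPM against 8.25 and 8.23 TPM, and neither was called. The ovarian somatic markers *tj*, called higher, and *piwi* summed to at most 0.61 TPM. Of 3 Wingless receptor genes listed for S2R+, *fz* and *arr* were called lower, beside 15.3% of all genes. The level of *fz* fell from 2.08 and 2.18 TPM to 0.38 and 0.45 TPM. The third, *fz2*, was not called, with 12.6 and 12.9 CPM in wild-type and 12.8 and 10.0 CPM in the mutant. The part of these markers in the results on Gst genes was not tested. CPM values here are normalized by TMM, which matches libraries on the bulk of their genes. TPM values also divide by effective transcript length and are used to compare levels between genes. The 2 scales are offset, since over the 8182 genes tested the mutant to wild-type log2 ratio had a median of -0.0037 in TMM-normalized counts and of -0.43 in TPM.

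The family was represented mainly by a few epsilon genes. Summed over the 35 genes, the level was 2233 and 2367 TPM in wild-type and 1693 and 1629 TPM in the mutant. That is a log2 ratio of -0.47 in TPM, close to the offset of all genes on that scale. In TMM-normalized counts the family summed to 1303 and 1365 CPM in wild-type and 1299 and 1367 CPM in the mutant, so that the groups overlapped. *GstE6* was the most abundant member in each of the 4 libraries. The 5 most abundant members held 63.7% and 64.5% of the family's TPM in wild-type, and the 5 most abundant of the mutant held 57.6% and 59.2%.

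**Figure D1:**
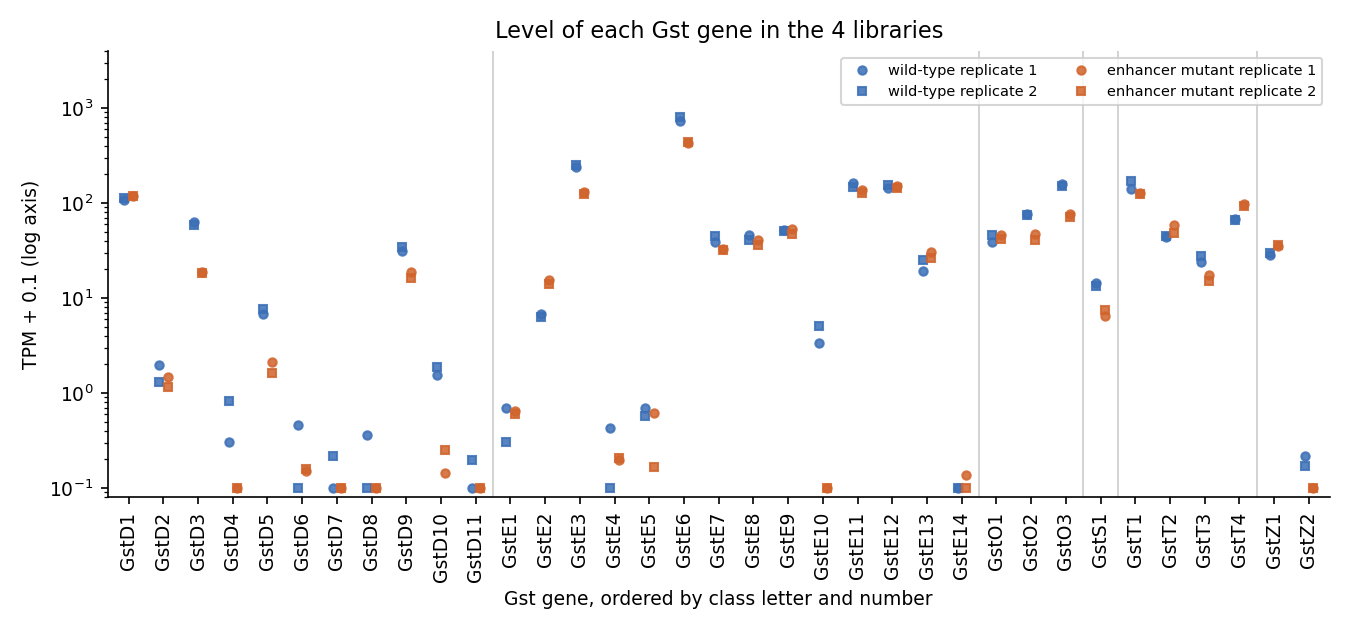
Level of each of the 35 Gst genes in TPM plus 0.1 (log axis), with 1 point per library, circles for replicate 1 and squares for replicate 2, blue for wild-type and orange for the enhancer mutant. *GstE6* lies highest in all 4 libraries, at 430 TPM or more, and the 10 members that could not be tested lie at or below 0.72 TPM.

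At the other end, 10 of the 35 genes had too few counts to be tested. These were *GstD4*, *GstD6*, *GstD7*, *GstD8*, *GstD11*, *GstE1*, *GstE4*, *GstE5*, *GstE14* and *GstZ2*, none above 11 counts or 0.72 TPM in a library. Among them, *GstD7*, *GstD8*, *GstD11*, *GstE14* and *GstZ2* had at most 3 counts in each of the 4 libraries. *GstD4* counted 2 and 6 in wild-type libraries and 0 and 0 in mutant libraries. *GstE1* counted 7 and 2 in wild-type libraries and 11 and 9 in mutant libraries. At this depth no difference in these 10 genes was put to a test.

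Of the 25 genes tested, 13 were differentially expressed, at an adjusted p below 0.05 (edgeR, Benjamini-Hochberg over all genes tested) and a log2 fold change (log2FC, mutant over wild-type) of 0.5 or more either way. That is 52.0% of the tested family, beside 27.9% of all 8182 tested genes. The calls ran both ways. In the mutant 6 members were higher (24.0%, beside 12.6% of all genes) and 7 were lower (28.0%, beside 15.3% of all genes). Among the lower ones, *GstD10* and *GstE10* passed the count filter through the wild-type libraries alone, so they could be called only as lower. A filter of at least 10 counts in every library gave 5 higher and 6 lower of 23 members, beside 913 and 1003 of 7572 genes. With library sizes alone as the scale, the split was 4 higher and 10 lower, beside 560 and 1984 of 8182 genes. All genes then had a median of -0.20. The 6 higher genes were also above both wild-type libraries in both mutant libraries in TPM, where 11.1% of all genes were, and the 7 lower genes were below them, where 71% of all genes were. These 13 genes were picked by their calls on the same libraries, so their separation in TPM is not separate support. Over the 25 genes the median log2FC was 0.06, and the median absolute log2FC was 0.51, beside 0.32 over all genes. In TMM-normalized CPM the groups were separated for 22 genes, with the mutant above in 11 (44.0%, beside 37.7% of all genes) and below in 11 (beside 37.9%). On the adjusted p alone 10 genes were higher (beside 24.5% of all genes) and 10 lower (beside 24.2%), together 80.0% beside 48.7%. Because an exact two-sided permutation test of 2 libraries against 2 cannot give a p below 0.333 for a single gene, the adjusted p values rest on the dispersion shared across genes.

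**Figure D2:**
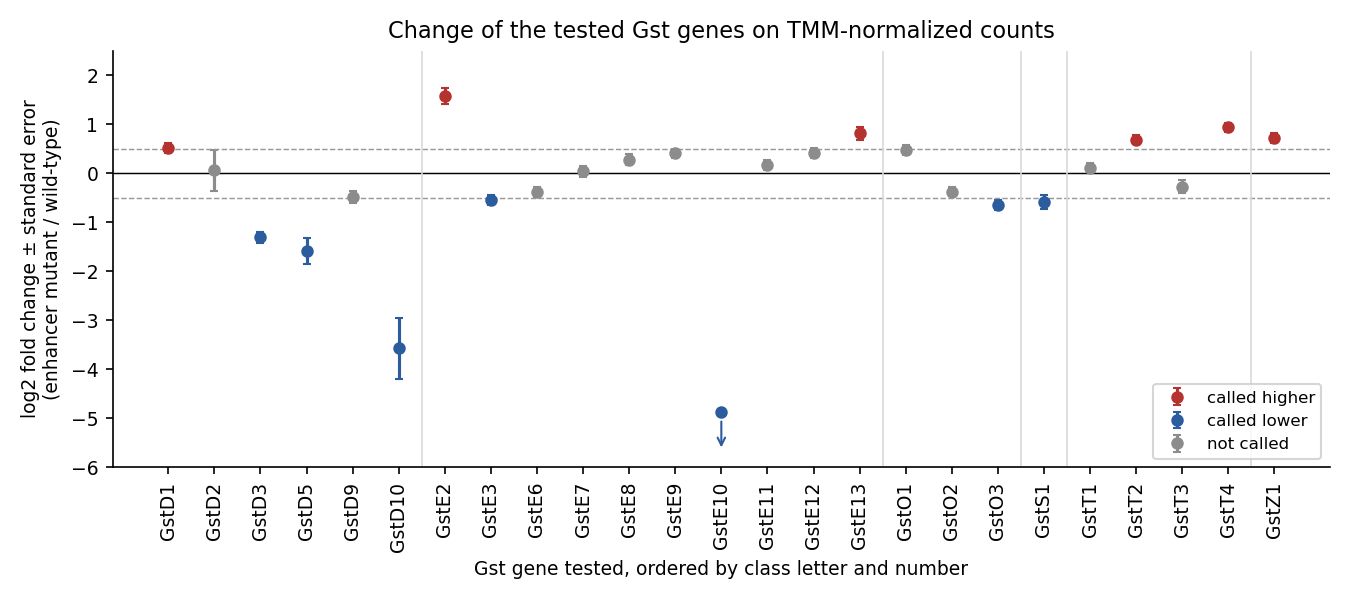
Log2 fold change of the 25 tested Gst genes (enhancer mutant over wild-type, TMM-normalized counts) with the standard error, ordered by class, with red for called higher, blue for called lower and grey for not called. The dashed lines mark a log2 fold change of 0.5 either way. Calls of both colours appear in classes D and E, and *GstE10*, at 0 counts in both mutant libraries, is drawn at its bound of -4.88 with an arrow.

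Class D had similar totals in both groups, while its members were called in both directions. The class summed to 113 and 116 CPM in wild-type and 109 and 116 CPM in the mutant, with a log2FC of -0.02 (standard error, SE, 0.09, adjusted p = 0.855, edgeR). On the TPM scale the class ratio was -0.44, again close to the offset of all genes. *GstD1*, the main delta enzyme here and one that can break down DDT, had 58.0 and 61.5 CPM in wild-type and 81.7 and 88.9 CPM in the mutant. Both mutant libraries were above both wild-type libraries, with a log2FC of 0.51 (SE 0.10, adjusted p = 0.00154, edgeR). The call lies at the threshold. It ended without wild-type replicate 1 (0.47) and without enhancer mutant replicate 2 (0.46), and also with upper quartile factors (0.48), with library sizes alone (0.32) and with at least 10 counts in every library (0.49).

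*GstD3*, which lies beyond *GstD2* from *GstD1*, was called lower. It had 31.6 and 29.1 CPM in wild-type and 11.9 and 12.6 CPM in the mutant. The groups were well apart, with a log2FC of -1.31 (SE 0.11, adjusted p = 7.78e-06, edgeR), and no setting changed this call. *GstD5*, a rarer delta member, had 4.01 and 4.45 CPM in wild-type and 1.54 and 1.26 CPM in the mutant. Its log2FC was -1.58 (SE 0.27, adjusted p = 0.000792, edgeR), again with no overlap between groups. *GstD10* counted 19 and 19 in wild-type libraries and 1 and 3 in mutant libraries. It was called lower. Pooled by group and divided by the TMM-normalized library sizes, the counts gave a 12.7-fold ratio. The exact 95% interval of this ratio, from 4.58 to 49.1, covers counting error only. *GstD10* passed the count filter through the wild-type libraries alone, so the interval is not separate support for a lower level. The fitted log2FC was -3.58, and it was -2.87 without enhancer mutant replicate 1 and -4.59 without enhancer mutant replicate 2.

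The other tested delta genes were not called. *GstD9* had 16.8 and 18.3 CPM in wild-type and 12.9 and 11.99 CPM in the mutant. Its log2FC of -0.49 (adjusted p = 0.00824, edgeR) fell just short of the threshold, and it was called on the adjusted p alone and in 5 settings that kept the size threshold, with values from -0.69 to -0.51. *GstD2* was near the limit of detection in all libraries, between 0.57 and 0.88 CPM, with overlapping groups. A ratio of 2 members within a library does not depend on how libraries are scaled, and the pairs given were picked with their values in view. The TPM of *GstD1* was 1.70 and 1.96 times that of *GstD3* in the wild-type libraries and 6.41 and 6.50 times in the mutant libraries. Thus the order of these levels was the same in all 4 libraries, and the distance between them was larger in the mutant.

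Class E held most of the family's transcripts. It took 64.1% and 64.4% of the Gst TPM in wild-type, and the mutant libraries gave it 60.4% and 61.2%. As a sum it had 750 and 794 CPM in wild-type and 692 and 737 CPM in the mutant, with a log2FC of -0.11 (SE 0.10, adjusted p = 0.37, edgeR). Its highest gene, *GstE6*, had 720 and 796 TPM in wild-type and 430 and 443 TPM in the mutant. By level it ranked 156 of 13909 genes in wild-type and 229 in the mutant. In CPM it had 366 and 403 against 277 and 311, a log2FC of -0.38 (SE 0.10, adjusted p = 0.00972, edgeR), below the size needed for a call, though it was called lower with library sizes alone (-0.58).

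*GstE3*, next in level to *GstE6* in wild-type, had 120 and 126 CPM in wild-type and 82.6 and 85.5 CPM in the mutant. The mutant libraries were lower, with a log2FC of -0.55 (SE 0.09, adjusted p = 0.000909, edgeR). Without wild-type replicate 2 the value was -0.4996, just short of the threshold. *GstE2*, the adjacent gene in the array, had 4.55 and 4.11 CPM in wild-type and 12.9 and 13.0 CPM in the mutant. This was the highest fold change among the members called higher, at 2.99-fold (log2 1.58, SE 0.16, adjusted p = 3.32e-05, edgeR), and it was called in each setting tried. Within a library the TPM of *GstE2* was 0.028 and 0.025 of that of *GstE3* for wild-type, and 0.1163 and 0.1146 of it for the mutant.

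*GstE10*, the first gene of the array by coordinate, was the only tested member without a count in the mutant. Its counts were 62 and 70 in wild-type (3.03 and 3.99 CPM) and 0 in both mutant libraries. Against a floor of 3 counts per library it was at least 29.5-fold lower, and a filter of at least 10 counts in every library leaves it out. Its exons share 20 bases with those of *GstE1* on the opposite strand, and the strand setting of the libraries is not given in the sources used here. *GstE13*, which lies apart from the array on chromosome 2R from 9122125 to 9123309, had 12.6 and 16.1 CPM in wild-type and 25.5 and 24.5 CPM in the mutant. It was higher in both mutant libraries, with a log2FC of 0.81 (SE 0.13, adjusted p = 0.000628, edgeR).

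The remaining epsilon genes tested were not called. *GstE12* had 91.3 and 97.8 CPM in wild-type and 123 and 129 CPM in the mutant. Its groups did not overlap in CPM, with a log2FC of 0.41 (adjusted p = 0.00472, edgeR), and overlapped in TPM with a ratio of -0.01. *GstE9* was similar, with 27.5 and 26.5 CPM against 36.1 and 35.4 CPM and a log2FC of 0.40, or -0.0080 in TPM. Exons of *GstE9* share 40 bases with those of *imd* on the opposite strand. *imd* had 70.8 and 69.4 CPM in wild-type and 80.3 and 89.0 CPM in the mutant and was not called (0.27). *GstE11*, among the 5 most abundant members in 3 of the 4 libraries, had 80.2 and 71.9 CPM in wild-type and 84.1 and 87.4 CPM in the mutant. *GstE8* (0.28), *GstE11* (0.17) and *GstE7* (0.04) had smaller log2FC values in TMM-normalized counts and were negative in TPM, at -0.17, -0.23 and -0.37. For these 5 genes the direction thus depended on the scale. Relative to the offset of all genes each lay above 0, *GstE9* and *GstE12* by most and *GstE7* by least.

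Class O was lower as a sum, at 180 and 177 CPM in wild-type and 144 and 144 CPM in the mutant. The log2FC of the sum was -0.31 (SE 0.09, adjusted p = 0.0138, edgeR), which did not reach the threshold for a call except with library sizes alone (-0.50). Omega enzymes use a cysteine in place of the serine or tyrosine of other classes and reduce oxidized substrates. *GstO3* had 99.3 and 94.3 CPM in wild-type and 60.7 and 62.8 CPM in the mutant. It was called lower in each setting tried, with a log2FC of -0.65 (SE 0.09, adjusted p = 0.000294, edgeR).

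The other omega genes were not called and had values of opposite sign in TMM-normalized counts. *GstO2* had 51.7 and 49.6 CPM in wild-type and 40.0 and 38.2 CPM in the mutant, with a log2FC of -0.37 (adjusted p = 0.00581, edgeR), and was called lower with library sizes alone (-0.57). *GstO1* had 28.8 and 33.1 CPM in wild-type and 43.2 and 43.0 CPM in the mutant, with a log2FC of 0.48 (adjusted p = 0.00256, edgeR) and of 0.05 in TPM. It was called higher with no filter on low counts (0.52) and without wild-type replicate 2 (0.59). Both separated the groups in CPM, where 37.7% of all genes had the mutant above and 37.9% had it below. The TPM of *GstO1* was 0.249 and 0.301 of that of *GstO3* for wild-type and 0.605 and 0.587 of it for the mutant. *GstO2* shares 61 exon bases with *se*, which had at most 0.69 TPM in a library.

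Class T took a larger share of the family in the mutant, at 12.4% and 13.1% of the Gst TPM in wild-type against 17.8% and 17.2% in the mutant, a description with no test. In TMM-normalized counts the sum was 223 and 241 CPM in wild-type and 313 and 321 CPM in the mutant, with a log2FC of 0.45 (SE 0.09, adjusted p = 0.0025, edgeR), while in TPM it was -0.01. The sum was not called, though it was without wild-type replicate 2 (0.52). *GstT4*, on chromosome X from 13404749 to 13409323, had 67.5 and 64.3 CPM in wild-type and 123 and 129 CPM in the mutant. It was 1.92-fold higher (log2 0.94, SE 0.10, adjusted p = 2.83e-05, edgeR), with wide separation of the groups in both scales.

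*GstT2* had 29.4 and 29.4 CPM in wild-type and 50.2 and 44.4 CPM in the mutant. It was called higher, with a log2FC of 0.69 (SE 0.10, adjusted p = 0.000274, edgeR), and was just short with library sizes alone (0.49). Its exons share 223 bases with *CG12926* on the opposite strand, which had between 4.45 and 5.88 CPM and was not called. *GstT1*, which lies just upstream of *GstT2*, had 111 and 131 CPM in wild-type and 126 and 135 CPM in the mutant, so that the groups overlapped. *GstT3* had 14.9 and 17.1 CPM against 13.5 and 12.8 CPM and was not called either (log2FC -0.27, adjusted p = 0.104, edgeR).

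The sigma and zeta classes each rested on a single expressed gene. *GstS1*, an enzyme that acts on lipid oxidation products and is abundant in fly muscle, had 18.4 and 17.1 CPM in wild-type and 10.5 and 13.2 CPM in the mutant. It was called lower, with a log2FC of -0.59 (SE 0.14, adjusted p = 0.00611, edgeR). The call depended on enhancer mutant replicate 1, and without that library the log2FC was -0.41 (adjusted p = 0.0741, edgeR). *GstZ1*, a maleylacetoacetate isomerase of the tyrosine pathway, had 20.1 and 20.2 CPM in wild-type and 31.2 and 35.1 CPM in the mutant. It was called higher, with a log2FC of 0.72 (SE 0.10, adjusted p = 0.000318, edgeR). Its neighbour *GstZ2* counted 3 and 1 in wild-type libraries and 0 and 0 in mutant libraries.

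**Figure D3:**
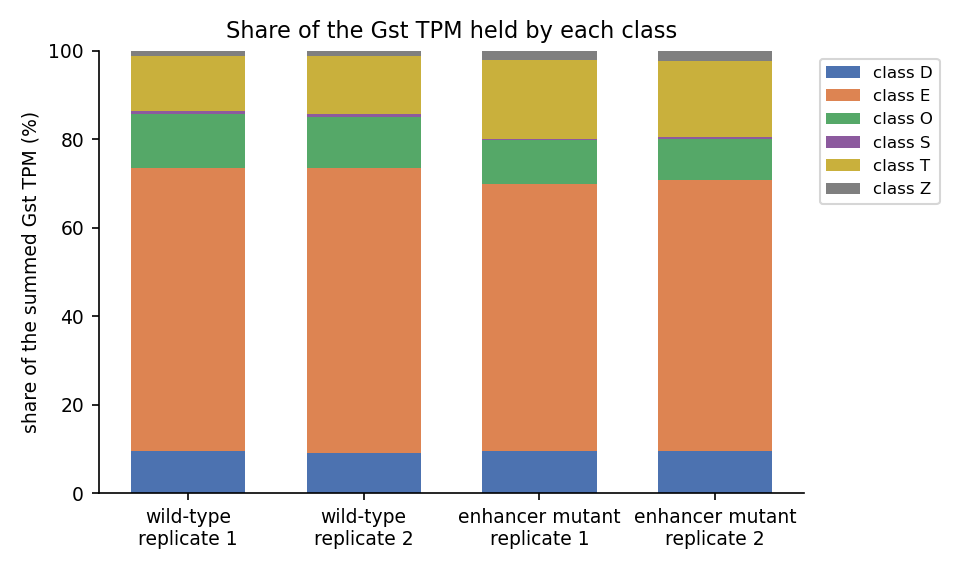
Share of the summed Gst TPM (%) held by each class in each of the 4 libraries, stacked to 100%. Class E takes 60.4% or more in every library, and class T takes 12.4% and 13.1% in wild-type against 17.8% and 17.2% in the mutant.

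The members in tandem were then read along the chromosome, with the genes that lie between them or within 20 kb. The class D array spans 20849 bases of chromosome 3R (12364776 to 12385624) and holds all 11 delta genes. In chromosome order its tested members ran lower, not called, higher, not called, lower and lower, for *GstD10*, *GstD9*, *GstD1*, *GstD2*, *GstD3* and *GstD5*. Of 8 tested neighbours 1 was called, beside 27.9% of all genes. This was *Cyp9f3*, a cytochrome P450 gene, with 33.7 and 38.2 CPM in wild-type and 53.3 and 54.1 CPM in the mutant (log2FC 0.58, adjusted p = 0.000698, edgeR). Its groups overlapped in TPM.

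The class E array spans 13198 bases of chromosome 2R (18396638 to 18409835) with 10 epsilon genes, of which 7 were tested. From *GstE3* onward the log2FC values of the tested genes increased in chromosome order. They ran from -0.55 in *GstE3* through *GstE6*, *GstE7* and *GstE8* to 0.40 in *GstE9*, a pattern noticed after the values were seen and not tested. The widest step was that from *GstE6* (-0.38) to *GstE7* (0.04), and the narrowest that from *GstE8* (0.28) to *GstE9*. Standard errors of these genes ranged from 0.09 to 0.12. The tested members before *GstE3*, *GstE10* (bound of -4.88) and *GstE2* (1.58), lie outside this order. *GstE4* and *GstE5*, within the run, were not tested. Of 7 tested neighbours 2 were called, a share near the 27.9% of all genes. *Idgf5*, a chitinase-like growth factor gene next to *GstE10*, had 4.01 and 4.74 CPM in wild-type and 1.61 and 1.92 CPM in the mutant (log2FC -1.31). *BomBc2*, an immune-induced peptide gene, had 2.35 and 3.08 CPM against 5.37 and 4.93 CPM (0.93).

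The omega array spans 5982 bases of chromosome 3L (8518885 to 8524866). Here 3 of 6 tested neighbours were called, all lower. *foi*, a zinc transporter gene that starts 378 bases beyond *GstO1*, had 222 and 210 CPM in wild-type and 97.6 and 88.7 CPM in the mutant (log2FC -1.21, adjusted p = 4.52e-06, edgeR). *Pus7*, a pseudouridine synthase gene (-0.55), and *CG6765* (-1.09) lay on the other side. *GstO1*, next to *foi*, had a positive value. These counts are small, and 15.3% of all genes were called lower.

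**Figure D4:**
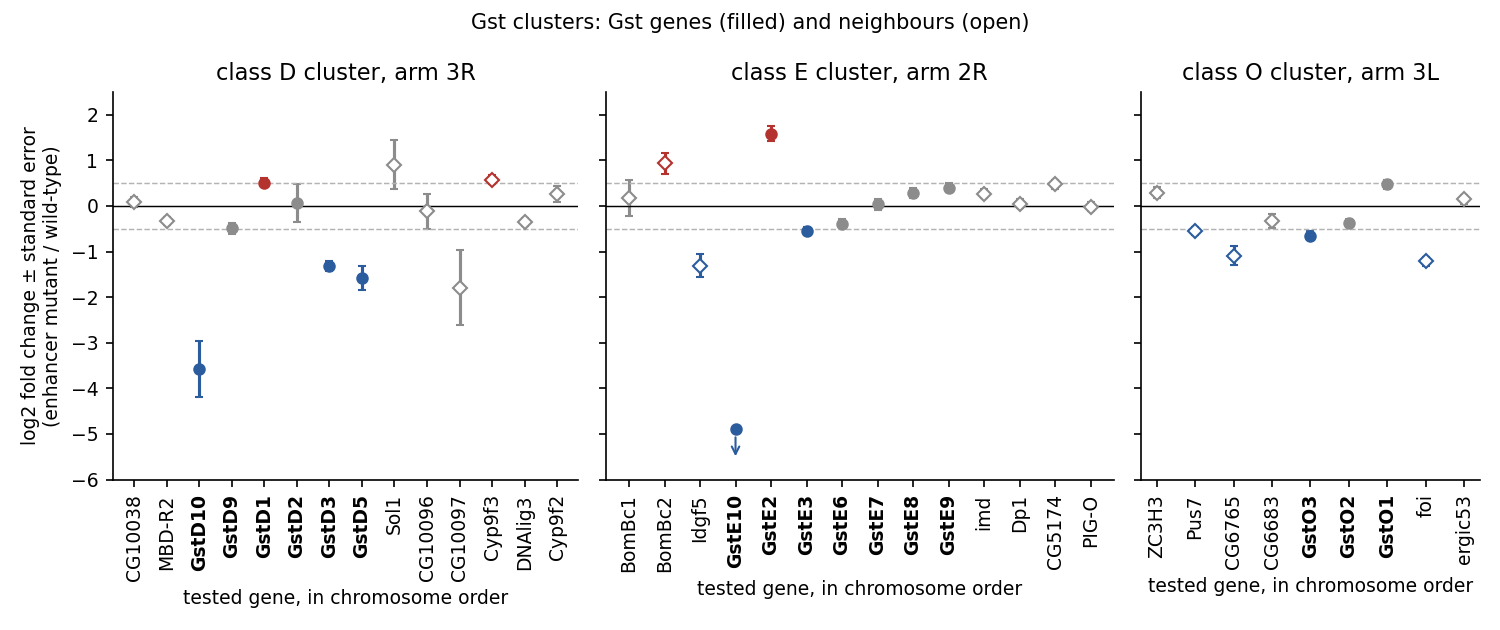
Log2 fold change with its standard error for the tested genes of the delta, epsilon and omega arrays in chromosome order, with filled circles and bold names for Gst genes, open diamonds for neighbours within 20 kb, and colours for the call as higher (red), lower (blue) or not called (grey). Members of both signs lie within the delta and the epsilon array, among them *GstD1* (0.51) and *GstD3* (-1.31), and the arrow marks the bound of *GstE10* at -4.88.

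Genes that make glutathione, regulate the response or work beside the transferases were described from lists of known members. The lists held older and newer symbols of some genes, and symbols without a match were left out. Matches were 7 of 9 for glutathione synthesis and breakdown, 3 of 3 for CncC regulators and 9 of 13 for exporters. They were 13 of 21 for thioredoxins and peroxiredoxins, 6 of 7 for superoxide dismutases and catalases, and 10 of 17 for other glutathione-using genes. Among 6 tested genes of glutathione synthesis and breakdown, 1 was called, beside 27.9% of all genes. This was *Gclc*, the catalytic subunit of glutamate-cysteine ligase, which sets the rate of glutathione synthesis. It had 194 and 184 CPM in wild-type and 93.3 and 97.4 CPM in the mutant (log2FC -0.99, SE 0.09, adjusted p = 1.4e-05, edgeR). Its modifier subunit *Gclm* had 41.9 and 48.3 CPM against 36.7 and 39.9 CPM and was not called (-0.24, adjusted p = 0.0751, edgeR).

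The 3 regulators of the CncC system went different ways. *Keap1*, which marks CncC for destruction, had 25.6 and 26.4 CPM in wild-type and 13.3 and 12.3 CPM in the mutant (log2FC -1.02, adjusted p = 4.97e-05, edgeR). *maf-S*, the small Maf partner of CncC, had 65.05 and 79.4 CPM against 104.9 and 125 CPM (0.67, adjusted p = 0.0014, edgeR). *cnc*, which also encodes forms other than CncC, had 107 and 90.4 CPM against 83.6 and 75.3 CPM and was not called (-0.31, adjusted p = 0.0365, edgeR). All 3 separated the groups in both scales, which is common here. Of all genes, 37.7% lay above and 37.9% below in CPM, and 11.1% above and 71% below in TPM.

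Of 8 tested exporters of the multidrug resistance-associated type, which can carry glutathione conjugates out of cells, 4 were called lower, beside 15.3% of all genes, and 0 higher. Their median log2FC was -0.51, beside -0.0037 over all genes. Only 9 of the 13 listed symbols matched a gene, so the 8 may not cover every exporter. *MRP* itself had 493 and 468 CPM in wild-type and 314 and 272 CPM in the mutant (-0.71, adjusted p = 0.000298, edgeR). *rdog* (-1.75), *CG9270* (-2.28) and *CG31793* (-0.59) were the others.

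The antioxidant lists held 1 or 2 called genes each. Among 9 tested thioredoxin and peroxiredoxin genes 2 were called higher and 0 lower. *Prx6b* had 7.14 and 9.47 CPM in wild-type and 34.5 and 33.9 CPM in the mutant, and *Prx6c* had 7.04 and 8.27 CPM against 34.0 and 39.6 CPM, with log2FC values of 2.05 and 2.27. These related genes of chromosome 2R may have shared reads, so that their separate values are less certain. Among 5 tested superoxide dismutase and catalase genes *Irc*, an immune-regulated catalase gene, was called higher (1.22) and none lower. Of 7 other glutathione-using genes or genes with a transferase-like fold, *Clic*, a chloride channel gene (0.81), and *Grx1*, a glutaredoxin gene (0.73), were called higher and none lower. Among the tested genes not called, only *Prx3* (-0.33), *Cat* (-0.31), *Trxr1* (-0.29) and *gfzf* (-0.27) had negative log2FC values. The others were positive, up to 0.48 in *Trx2*. In the order given, the list medians were 0.34, 0.15 and 0.27. These lists are short, so their counts are given as values only, beside the 12.6% higher and 15.3% lower of all genes.

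**Figure D5:**
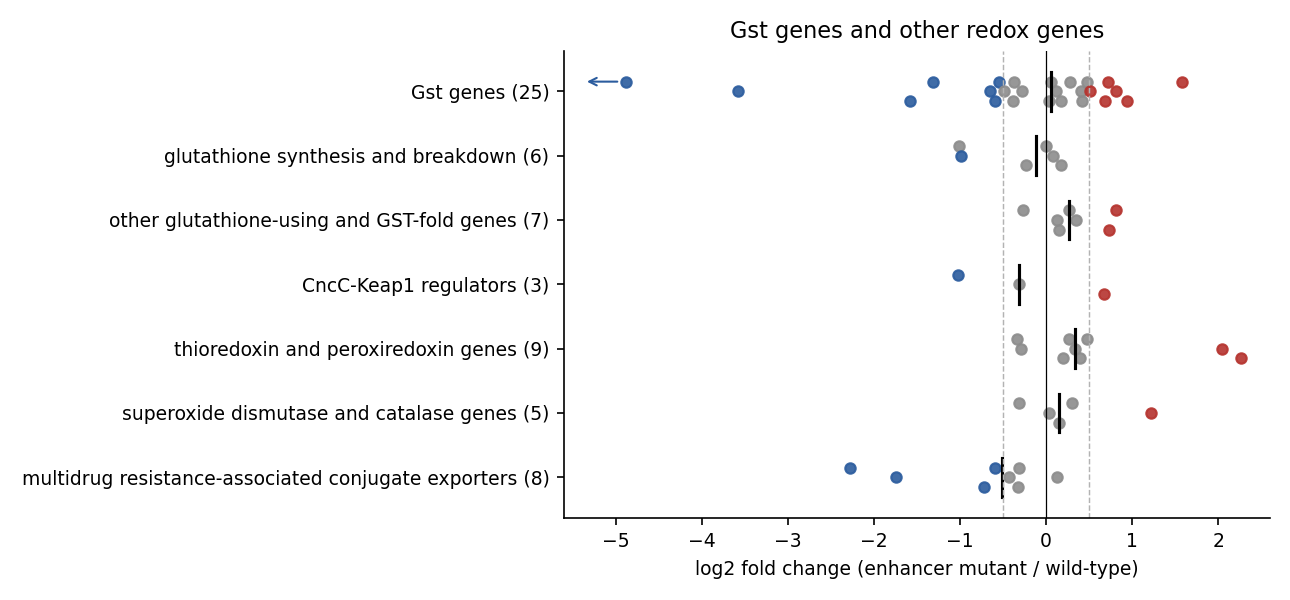
Log2 fold changes (enhancer mutant over wild-type) of the tested Gst genes and of the tested genes in 6 related lists, 1 point per gene, red for called higher, blue for called lower and grey for not called, with the median of each list as a black bar and the number of genes in brackets. The Gst genes lie on both sides of 0 with a median of 0.06, and the exporters have the lowest median, -0.51.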

How the data were processed

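Transcripts were quantified by the authors with Salmon (version 0.10.2 in the submitters' processing notes) against a transcriptome index of dm6, with mapping validation and a GC bias model. The estimated counts deposited per transcript are not normalized, and the deposited TPM values are scaled by effective length to 1000000 per library. Matching to the Ensembl annotation (release 115, dm6 coordinates) placed 29850 of 30070 transcripts, and the other 220 held 0.230% to 0.292% of a library's counts. Counts were summed over 13909 genes, rounded and tested with edgeR 4.0.16 in R 4.3.3 (filterByExpr, TMM, glmQLFit, glmQLFTest) without covariates, with Benjamini-Hochberg adjustment over 8182 genes. Standard errors (SE) equal the size of the log2 fold change divided by the root of F. For class sums, the members of a class were replaced by their summed counts, so reads that Salmon may have moved between related members stay together. TPM ratios used a pseudocount of 0.1. A library with at most 3 counts was taken as at the floor.

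The family, gene lists and settings were chosen with earlier results of these data known. Every Gst gene is accounted for, with values per library for those called or most abundant. Listed genes and array neighbours are named where called, as are *cnc*, *Keap1*, *Gclc* and *Gclm*. Alternatives were other scalings, filters and thresholds, an offset for effective length, a replicate block, DESeq2 1.42.0, the TPM scale and leaving out each library. On simulated counts of these 4 libraries with 8070 genes tested, edgeR called 94.3% of 88 genes changed by 1 log2 unit and 97.2% of 107 changed by 2, and 8 unchanged genes. The simulation used the dispersions fitted here and changed far fewer genes than were called in the data. It held no change below 1 log2 unit, so it does not show how well smaller ones are found. Sequences of the Gst genes were not used here.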

Additional observations from a re-analysis of the deposited data

How the results depend on the processing

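The family count stayed between 11 and 14 called genes in each count-based setting with both thresholds, and DESeq2, RLE factors and the effective length offset called the same 13. Of the 13 genes, *GstD1*, *GstE3*, *GstS1*, *GstT2*, *GstD10* and *GstE10* were lost in at least 1 setting, the last pair only through the filter of 10 counts. A threshold of 1.5-fold left 11 (5 higher, 6 lower), without *GstD1* and *GstE3*, beside 795 higher and 1093 lower of all 8182 genes. On the adjusted p alone 10 members were higher and 10 lower, while 2001 and 1983 of all genes were. Library sizes alone gave 560 higher and 1984 lower genes in the whole table, against 1031 and 1254, and a class O sum of -0.504. The class D sum, near 0, was 0.019 with no filter on low counts and ranged from -0.055 to 0.034 with each library left out. So left out, the class O sum ranged from -0.31 to -0.29, the class S sum from -0.75 to -0.41 and the class T sum from 0.40 to 0.52. On the TPM scale the class sums were -0.44 (D), -0.55 (E), -0.76 (O), -0.99 (S), -0.013 (T) and 0.29 (Z), beside a median of -0.43 over all tested genes on that scale (the cause was not tested). Among members not called, *GstD2* changed sign with library sizes alone (-0.13) and ranged from -0.19 to 0.42 with libraries left out, *GstE7* did so too (-0.16, and from -0.071 to 0.16), and *GstE11* (-0.022) and *GstT1* (-0.085) did so with library sizes alone (the cause was not tested). Under a replicate block the calls were the same 13 genes (6 higher, 7 lower), and 1040 higher and 1236 lower genes in the whole table. The labels give same-numbered libraries only a number in common and do not say whether they were prepared together. Their deviations from the group means had a correlation of 0.168 across genes.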

Other observations

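Some members are quantified as several transcripts, and their shares were read as values with no test. *GstD9* has 2 transcripts, and the longer one (786 bases) held 23.1% and 20.8% of the gene's TPM in wild-type, against 35.7% and 33.2% in the mutant. For *GstE8* the longer transcript (1122 bases) held 3.89% and 7.05% in wild-type, against 10.4% and 8.71% in the mutant. *GstD1* was almost wholly its 825-base transcript, at 98.1% or more of its TPM in each library. *GstS1*, with 4 quantified transcripts, drew between 56.2% and 66.0% of its TPM from its transcript of 1402 bases, with overlapping groups. The transcripts of a gene overlap, and how Salmon divided reads between them was not tested.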
